A study of Actinidia chinensis with 12 samples.

Results

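The genes described here were those whose transcript level varied least over all 12 libraries of ripened kiwifruit from the cultivars Hongyang and Jinyan. They were chosen by level: CPM, the count of a gene scaled to a library size adjusted by edgeR's TMM factors, had to average from 20 to under 500 over the 12 libraries, and the highest library could be at most 1.6 times the lowest. Of 39040 gene identifiers, 22199 had enough counts to be scaled and tested and 6323 lay in the CPM range. The ratio limit left 253 steady genes, which is 4.0% of the genes in the CPM range and 1.14% of the genes tested. All 12 libraries were used in the choice, so the small differences of these genes between cultivars and tissues are a description of the choice and carry no test.

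Genes with a steady level matter to expression studies because they serve as references. Quantitative PCR divides the level of a gene of interest by that of a reference gene, and a reference that moves between cultivars or tissues shifts every gene measured against it. Genes for the cytoskeleton, translation, protein turnover and central carbon metabolism are the usual candidates in plants, but which of them hold their level in a given fruit has to be measured. RNA sequencing has no outside standard of this kind: TMM scaling takes the typical gene as unchanged, and a gene is steady only relative to that scale. The identifiers are used as the count table gives them, and no gene names, functions or sequences were used here, so neither the usual reference genes nor markers of the labelled tissues could be looked up.

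The groups were Hongyang core, Hongyang whole fruit, Jinyan core and Jinyan whole fruit, with 3 libraries each, all from ripe fruit sampled at harvest. The flesh is yellow in Jinyan and red around the core in Hongyang. Core stands here for the samples labelled as flesh core, and the labels do not say how it was cut out. They say whole fruit for the samples that the series design calls periphery, and no label says whether replicates came from separate fruits, vines or pools. In bulk tissue such as this, fewer cells of a type and less RNA per cell cannot be told apart.

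Library totals ranged from 6870519 to 21222578 counts in 11 libraries and stood at 1888744 in Hongyang whole fruit replicate 3. At 20 CPM this shallow library holds 50.4 counts, with a counting error of 14.1%, against 4.87 to 8.10% in the other libraries. The steady genes had from 44 to 942 counts each in it, with a median of 107. Intervals of this kind cover counting error only. Among counts of 1 to 20, 56.2 to 60.3% were even, and counting error would be understated if both reads of a pair were counted.

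The steady genes spanned nearly the whole CPM range, from 20.2 to 465 CPM with a median of 44.7 CPM, next to a median of 44.6 CPM for all genes in the range. Their ratio of highest to lowest CPM ran from 1.204 to the limit, with a median of 1.51, where the median gene in the range had a ratio of 3.05. The coefficient of variation over the 12 libraries had a median of 12.6% for the steady genes, with a highest value of 18.4%, and a median of 31.8% for all genes in the range. Steady genes were spread unevenly over abundance. They made up 141 of 3529 genes from 20 to 50 CPM (4.0%), 81 of 1527 from 50 to 100 CPM (5.30%), 27 of 838 from 100 to 200 CPM (3.22%) and 4 of 429 from 200 to 500 CPM (0.932%). The 4 most abundant therefore stand for a class in which a steady level was rare by this rule.

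**Figure D1:**
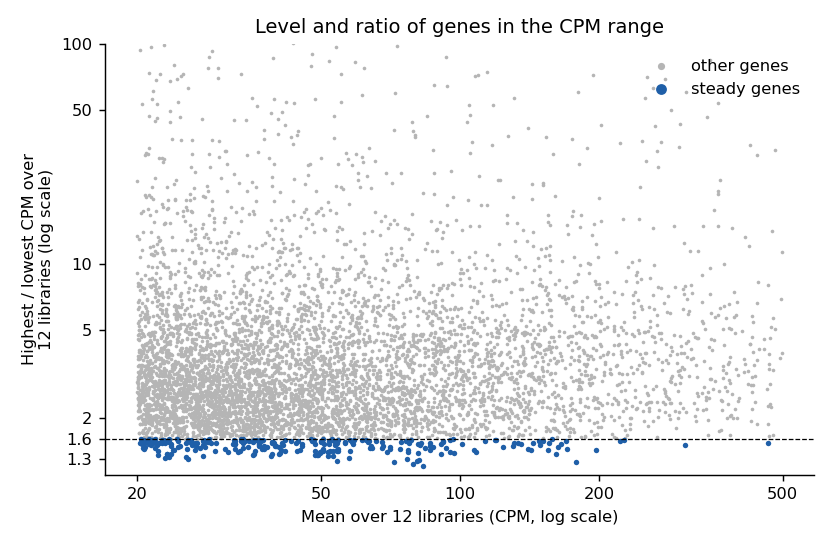
Each point is a gene in the CPM range, placed by its mean CPM over 12 libraries and by the ratio of its highest to its lowest CPM, both on log axes. The 253 steady genes lie on or under the dashed line at 1.6, and few lie beyond 200 CPM; 62 genes with a count of 0 in a library and 34 genes with a ratio over 100 are not drawn.

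Values of the steadiest genes are given for every library, since a single low or high library decides the ratio. Achn131441 varied least of all, with a ratio of 1.204 and a coefficient of variation of 5.49%. It stood at 78.4, 85.9 and 87.8 CPM in Hongyang core, 74.7, 86.2 and 79.0 CPM in Hongyang whole fruit, 86.1, 89.9 and 84.4 CPM in Jinyan core and 84.8, 79.5 and 80.4 CPM in Jinyan whole fruit. The 4 groups overlapped, and the lowest value was that of Hongyang whole fruit replicate 1.

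Achn063791, with a ratio of 1.24, stood at 79.4, 71.0 and 81.0 CPM in Hongyang core, 75.2, 80.5 and 73.5 CPM in Hongyang whole fruit, 84.5, 76.3 and 82.8 CPM in Jinyan core and 87.7, 80.7 and 79.1 CPM in Jinyan whole fruit. Its group means ran from 76.4 ± 3.65 CPM (SD, n = 3) in Hongyang whole fruit to 82.5 ± 4.60 CPM (SD, n = 3) in Jinyan whole fruit, a difference larger than these SDs, and the libraries of these 2 groups overlapped. Achn086741 was the steadiest gene from 100 to 200 CPM, with a ratio of 1.26. It stood at 174.7, 161.2 and 170.9 CPM in Hongyang core, 195.0, 202.5 and 186.2 CPM in Hongyang whole fruit, 181.0, 165.5 and 186.2 CPM in Jinyan core and 179.0, 171.1 and 168.7 CPM in Jinyan whole fruit. Here the small ratio hid an ordering, because the 3 Hongyang whole fruit libraries lay at or above every other library to the precision given.

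The second gene of that band, Achn334761, had a ratio of 1.37 and group means of 165 ± 14.5 CPM in Hongyang core, 163 ± 11.4 CPM in Hongyang whole fruit, 155 ± 21.1 CPM in Jinyan core and 164 ± 6.54 CPM in Jinyan whole fruit (SD, n = 3 each). Its libraries differed more within Jinyan core than the group means differed from one another. At the low end, Achn339301 averaged 25.0 ± 0.971 CPM in Hongyang core, 25.5 ± 1.64 CPM in Hongyang whole fruit, 28.2 ± 2.73 CPM in Jinyan core and 24.6 ± 1.27 CPM in Jinyan whole fruit (SD, n = 3 each). Achn152131 averaged 21.4 ± 0.403 CPM in Hongyang core, 23.6 ± 3.57 CPM in Hongyang whole fruit, 24.4 ± 1.39 CPM in Jinyan core and 22.6 ± 1.5 CPM in Jinyan whole fruit (SD, n = 3 each). Both rest on few reads in the shallow library, with 69 counts for Achn339301 and 53 for Achn152131.

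Above 200 CPM the lowest ratios were those of Achn336601, at 1.501, and Achn281431, at 1.54. Achn281431 stood at 533, 468 and 476 CPM in Hongyang core, 415, 500.02 and 374 CPM in Hongyang whole fruit, 497, 575 and 431 CPM in Jinyan core and 460, 421 and 433 CPM in Jinyan whole fruit. Its highest library, Jinyan core replicate 2, and its lowest, the shallow Hongyang library, belong to different groups. All groups overlapped except that the 3 Hongyang core libraries lay above the 3 Jinyan whole fruit libraries. Achn336601 did not share this pattern. It stood at 334, 358 and 339 CPM in Hongyang core, 246, 255 and 297 CPM in Hongyang whole fruit, 302, 289 and 240.0 CPM in Jinyan core and 339, 328 and 360.3 CPM in Jinyan whole fruit. Core lay above whole fruit in Hongyang and below it in Jinyan, without overlap in either cultivar.

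**Figure D2:**
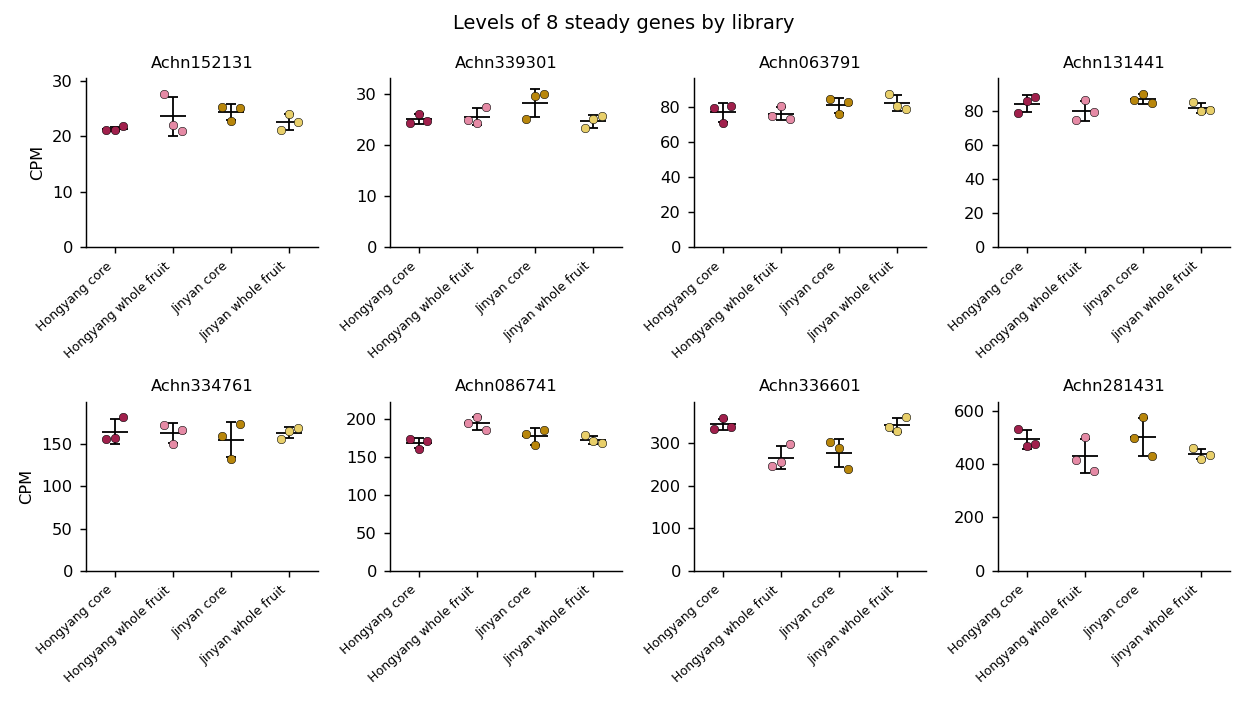
The panels show the CPM of the 2 steadiest genes in each of 4 abundance bands, with the 12 libraries as points in their 4 groups and the group mean ± SD (n = 3) in black; the axes start at 0. Achn336601 lies higher in Hongyang core than in Hongyang whole fruit and lower in Jinyan core than in Jinyan whole fruit.

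The limit at 1.6 cuts through a continuous range of ratios. Just inside it were Achn097071, with a ratio of 1.5999, and Achn158271, with 1.5995. Achn365411 with 1.6002 and Achn017921 with 1.6018 fell just outside. Within 0.1 below the limit lay 141 of the 253 steady genes, and a further 173 genes lay within 0.1 above it.

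The spread inside groups, and not only the difference between groups, decided which genes were steady. Among the genes in the CPM range, 5427 met the limit over the 3 Hongyang core libraries (85.8%), 2489 over the 3 Hongyang whole fruit libraries (39.4%), 5394 over the 3 Jinyan core libraries (85.3%) and 5993 over the 3 Jinyan whole fruit libraries (94.8%). In each of the 4 groups at once, 2016 genes met it. Ratios of the highest to the lowest group mean were at most 1.6 for 1929 genes, so that 1676 genes had close group means and were kept out by the spread of single libraries. For the steady genes themselves, the median ratio within a group was 1.16 in Hongyang core, 1.24 in Hongyang whole fruit, 1.18 in Jinyan core and 1.15 in Jinyan whole fruit, and the median ratio of group means was 1.23. Their median biological coefficient of variation, as edgeR estimates it per gene, was 0.160, with 0.207 for all genes in the range.

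The small variation that the steady genes did show was not evenly shared among the groups. The highest group mean fell in Hongyang core for 39 of the 253 genes, in Hongyang whole fruit for 54, in Jinyan core for 101 and in Jinyan whole fruit for 59. The lowest fell in Hongyang core for 82 genes, in Hongyang whole fruit for 53, in Jinyan core for 47 and in Jinyan whole fruit for 71. Jinyan core had the highest mean for 39.9% of the steady genes, against 46.0% of all genes in the range. Hongyang whole fruit had the lowest for 20.9% of the steady genes, against 41.2% of all genes in the range. Other shares were larger among the steady genes. Hongyang core had the lowest mean for 32.4% of them, against 16.0% of the range, and Jinyan whole fruit the highest for 23.3%, against 16.0%. Among single libraries, the shallow Hongyang library was the lowest for 16.2% of the steady genes, against 43.9% of the genes in the range. The part of its depth in this was not tested.

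When each steady gene was centred on its own mean over the 12 libraries on the log2 scale, the deviations could be compared between libraries. The same values chose the genes, and centring over the 12 libraries by itself pushes correlations between them below 0, so what follows is a description. Pearson correlations of these deviations across the 253 genes, which share library and depth, had a median of 0.29 for the 12 pairs of libraries from the same group and of -0.16 for the 54 pairs from different groups. Hongyang whole fruit had the lowest values within a group, with -0.12 between its replicates 2 and 3 and 0.09 between its replicates 1 and 2, while its replicates 1 and 3 had 0.184, next to 0.185 for Hongyang core replicates 1 and 2. The first principal component of the deviations held 22.2% of their variance and placed the 3 Jinyan core libraries between 1.73 and 2.58, with every other library between -1.18 and 0.63. The second held 16.9% and placed Jinyan whole fruit at one end, between 1.51 and 1.58, with every other library between -1.85 and 0.64.

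The design asks how the cultivars differ and how the core differs from the rest of the fruit. For the steady genes these comparisons were used in the choice, and their counts by edgeR's adjusted p are set beside the share of all tested genes without a reading. In core, 7 steady genes differed between Hongyang and Jinyan by edgeR's quasi-likelihood test (adjusted p under 0.05), 1 higher and 6 lower in Hongyang, while 30.0% of all genes passed. In whole fruit, 4 did, 3 higher and 1 lower in Hongyang, while 24.8% of all genes passed. Between core and whole fruit, 2 steady genes were higher in the core of Jinyan, where 16.6% of all genes passed. None passed in Hongyang by edgeR, where 4.68% of all genes passed; 8 steady genes had an unadjusted p under 0.05, DESeq2 called 3 and limma voom with sample weights 12. None passed the interaction of cultivar and tissue by edgeR, where 2.25% of all genes passed; 18 had an unadjusted p under 0.05, DESeq2 called 6 and limma voom 9. For unadjusted p, DESeq2 and limma voom, the share of all genes is not given here, so those counts have no background. The median absolute log2 difference of the steady genes was 0.18 for the cultivars in core, 0.13 in whole fruit, 0.12 for core over whole fruit in Hongyang and 0.15 in Jinyan. In the same order it was 0.52, 0.46, 0.34 and 0.43 for genes in the CPM range and 0.66, 0.62, 0.44 and 0.54 for all genes tested.

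The counts of called steady genes changed when single libraries were left out and when the scaling was changed. The share of all genes called without 1 library is not given here, so whether all genes changed alike cannot be told. In core, the count was 1 without Hongyang core replicate 1 or 3 or Jinyan core replicate 1, 2 without Hongyang or Jinyan core replicate 2, 3 without Jinyan core replicate 3 or Jinyan whole fruit replicate 2 or 3, 4 without Jinyan whole fruit replicate 1 and 23 without the shallow library. In whole fruit it was 0 without Hongyang whole fruit replicate 1 or any Jinyan whole fruit replicate, 1 without any Hongyang core replicate or Jinyan core replicate 1, 2 without Jinyan core replicate 3 and 10 without the shallow library. In the Jinyan tissue comparison it was 0 without any Jinyan library or Hongyang core replicate 1 or 3, 1 without Hongyang core replicate 2, 9 without Hongyang whole fruit replicate 2 and 13 without the shallow library. With library totals in place of TMM, 30 steady genes were called higher and 0 lower in Hongyang core, and 0 higher and 52 lower in Jinyan core than in Jinyan whole fruit. Under that scaling, 7209 of the 22199 genes tested were called for the cultivars in core and 4839 for the Jinyan tissues. Genes chosen to be nearly constant on the TMM scale must move with its factors once they are taken away. The direction of these splits therefore follows from the choice. With DESeq2 size factors, the whole fruit split was 1 higher and 2 lower. The median over all tested genes shifted under library totals as well, to 0.41 instead of 0.11 for the cultivars in core and to -0.40 instead of 0.04 for the Jinyan tissues, on the log2 scale.

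The called steady genes with the largest differences are given by their values, as a description. Since the same values chose these genes, neither their calls nor their errors support a difference. Achn215571 had the largest negative difference among those called in core and was the 1 called lower in Hongyang in whole fruit. It stood at 43.7, 41.4 and 43.4 CPM in Hongyang core against 64.5, 64.7 and 60.6 CPM in Jinyan core, with a log2 fold change of -0.56 ± 0.14 (SE). In whole fruit it stood at 42.7, 44.3 and 42.9 CPM in Hongyang against 59.5, 58.9 and 57.3 CPM in Jinyan, with a log2 fold change of -0.44 ± 0.15 (SE). No Hongyang library reached a Jinyan library, although the ratio over all 12 was only 1.56. With library totals the value in core was -0.25 and its call was lost. The call in whole fruit was also lost with library totals, and in the fits without 1 library except those lacking Hongyang whole fruit replicate 2 or 3.

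Achn095891 was the 1 steady gene called higher in Hongyang core, at 38.1, 38.5 and 40.0 CPM against 25.4, 27.8 and 29.2 CPM in Jinyan core, a log2 fold change of 0.50 ± 0.16 (SE). Its call was lost without any single library other than Hongyang whole fruit replicate 2 or 3 or Jinyan whole fruit replicate 1, and with library totals the value was 0.82. Achn148681 had the largest positive difference among those called in whole fruit, at 27.0, 27.4 and 26.6 CPM in Hongyang against 19.3, 17.2 and 18.8 CPM in Jinyan, a log2 fold change of 0.55 ± 0.17 (SE). It lost its call without Hongyang whole fruit replicate 1 or any of the 3 Jinyan whole fruit libraries. Between Jinyan tissues, Achn077751 stood at 189.9, 167.8 and 187.3 CPM in core against 125.9, 127.6 and 120.6 CPM in whole fruit, a log2 fold change of 0.54 ± 0.17 (SE). With library totals that value was 0.09 and the call was lost, as it was without any single library other than those of Hongyang whole fruit. In each of these pairs the 3 libraries of the one group lay entirely above those of the other.

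Some further called genes were named after their values were seen. Achn239461 was higher in Jinyan core than in the other 3 groups and was called in 2 comparisons. It stood at 74.9, 68.6 and 77.7 CPM in Hongyang core, 78.8, 82.4 and 74.3 CPM in Hongyang whole fruit, 105.4, 104.9 and 100.1 CPM in Jinyan core and 76.4, 69.2 and 74.5 CPM in Jinyan whole fruit. Its log2 fold change was -0.49 ± 0.15 (SE) for Hongyang over Jinyan in core and 0.50 ± 0.15 (SE) for core over whole fruit in Jinyan. In whole fruit, the remaining called genes were Achn334871, with a log2 fold change of 0.50 ± 0.16 (SE) for Hongyang over Jinyan, and Achn215771, with 0.49 ± 0.17 (SE). Achn334871 was also the 1 steady gene whose 6 Hongyang libraries all lay above the 6 Jinyan libraries, at 23.3 to 30.6 CPM in Hongyang against 19.3 to 21.4 CPM in Jinyan.

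Libraries of 2 groups could lie apart within the ratio limit, and the counts of such genes are again a description of genes chosen on these values. In core, 84 steady genes had Hongyang and Jinyan libraries that did not overlap (26 higher and 58 lower in Hongyang), which is 33.2% of them, where 55.1% of all genes did not overlap. In whole fruit the number was 47 (18.6%), where it was 37.5% for all genes. Core and whole fruit did not overlap for 59 steady genes in Hongyang (23.3%), where it was 24.9% for all genes, and for 84 in Jinyan (33.2%), where it was 48.1%. Over both tissues, 6 steady genes separated all 6 Hongyang from all 6 Jinyan libraries, 1 higher and 5 lower in Hongyang, where 16.8% of all genes did so. Another 5 separated all 6 core from all 6 whole fruit libraries, where 3.49% of all genes did so. Separate tissues in both cultivars were seen for 9 steady genes in opposite order (3.56%), where 2.51% of all genes had this pattern, and for 8 in the same order (3.16%), where 9.62% had it.

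Steadiness was defined on the TMM scale, and the scale itself spanned more than the limit. The TMM factors differed by 1.83 times between the highest, 1.34 in Hongyang whole fruit replicate 3, and the lowest, 0.730 in Jinyan core replicate 2. Genes chosen to be nearly constant on that scale must follow the factors once the scaling is taken away, so the levels here show its size and not its merit. On library totals alone, the geometric mean level of the steady genes ran from 1.31 in the shallow Hongyang library to 0.751 in Jinyan core replicate 2, relative to the mean over the libraries. On the TMM scale it lay between 0.959 and 1.04 in every library. The steady genes took 1.46 ± 0.050% of all counts in Hongyang core, 1.74 ± 0.209% in Hongyang whole fruit, 1.24 ± 0.129% in Jinyan core and 1.62 ± 0.054% in Jinyan whole fruit (SD, n = 3 each).

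Other scalings that adjust for composition gave similar lists, and library totals gave another one. DESeq2 size factors gave 262 steady genes, 222 of them among the 253, and upper-quartile factors gave 264, with 211 among the 253. Library totals gave 316 genes, of which 47 were among the 253 (18.6% of the TMM list and 14.9% of the other list). All 4 scalings shared 46 genes, and the 3 scalings other than library totals shared 200. None of the 8 genes drawn by library was among those 46 except Achn281431, whose ratio on library totals was 1.56. For Achn131441 that ratio was 1.61, for Achn063791 it was 1.76 and for Achn086741 it was 2.06.

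**Figure D3:**
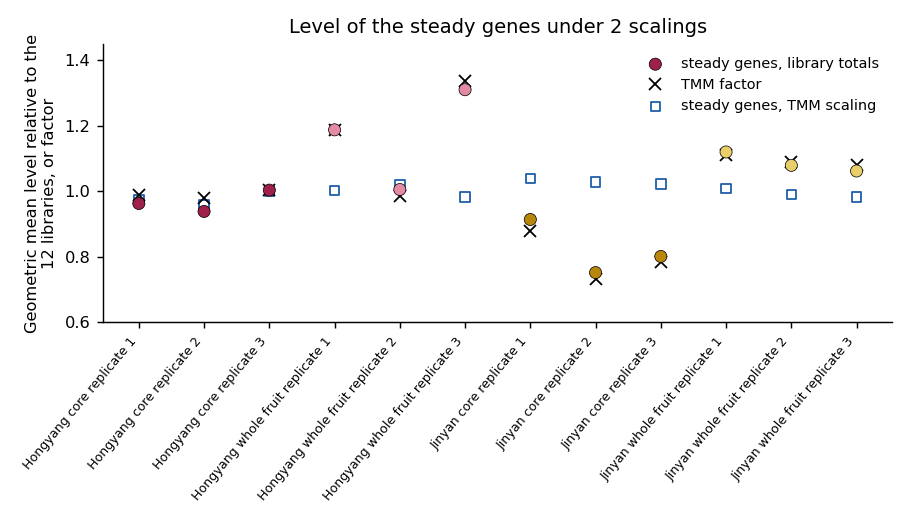
Circles give the geometric mean level of the 253 steady genes per library on library totals, relative to the mean over 12 libraries, crosses the TMM factors and squares the level of the same genes on the TMM scale. Circles lie between 0.751 and 1.31 and squares between 0.959 and 1.04; the choice of genes on the TMM scale fixes that circles follow the crosses and that squares stay near 1.

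The list also turned on 1 library. Leaving out the shallow Hongyang whole fruit replicate 3 and scaling the other 11 again gave 530 steady genes, of which 239 were among the 253. Without any other single library, 257 to 365 genes met the rule, the most without Hongyang whole fruit replicate 2. The share of steady genes from 20 to 50 CPM was 8.85% without the shallow library against 4.0% with it, and from 200 to 500 CPM it was 4.38% against 0.932%. When every library was thinned at random to the smallest total, 151 genes met the limit, of which 82 were among the 253. The share was then 1.40% from 20 to 50 CPM and 4.62% from 100 to 200 CPM.

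Leaving a library out of the choice shows how far the genes chosen on the others move in it. Genes were chosen on 11 libraries, on the TMM scale of all 12, and then read in the twelfth. The limit of 1.6 held in the left-out library for 46.4% of 545 chosen genes in Hongyang whole fruit replicate 3 and for 68.1% of 373 in Hongyang whole fruit replicate 2. In the other 10 libraries it held for 79.8 to 96.2% of the chosen genes. The genes that kept the limit numbered 251 to 255 whichever library was left out, nearly the 253 steady genes themselves. These shares therefore restate how many genes met the rule on 11 libraries and are no independent support. Chosen genes lay within 1.25-fold of their geometric mean over the 11 libraries for 40.0% of them in the shallow library, against 24.5% of all genes in the range. As a set they lay lower there, with a median log2 deviation of -0.30 from that mean, against -0.10 to 0.09 in the other libraries. The part of this shift in the shares was not tested. Hongyang core replicate 3 had the highest shares, 91.3% of chosen genes against 60.0% of genes in the range. Each left-out library had 2 replicates of its own group among the 11.

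**Figure D4:**
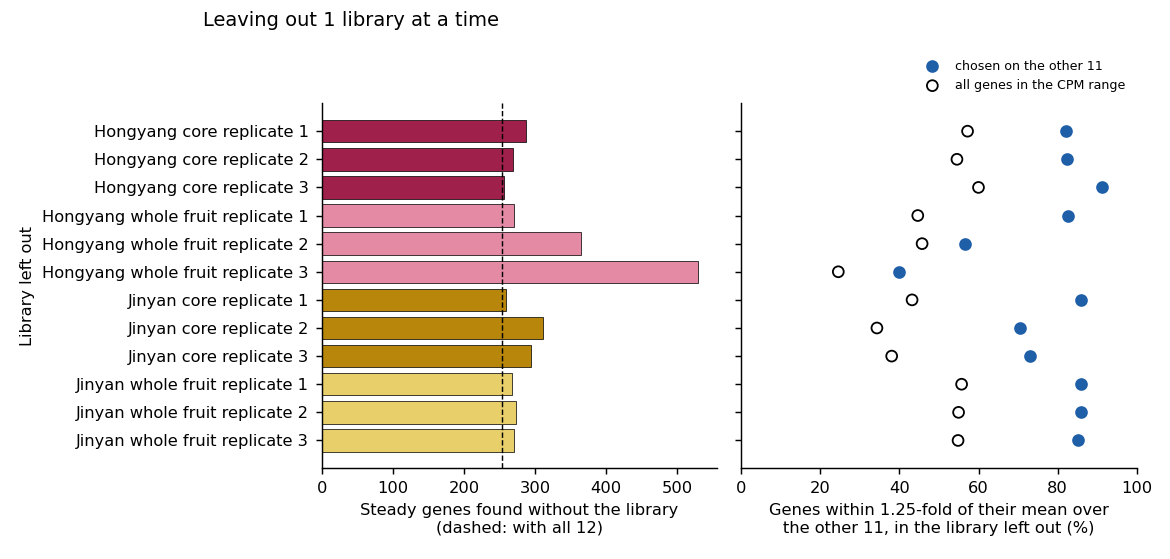
On the left, bars give how many genes met the rule after each library was left out and the others scaled again, with the 253 of all 12 libraries as a dashed line. On the right, filled points give the share of genes chosen on 11 libraries that lay within 1.25-fold of their geometric mean in the library left out, and open points the share of all genes in the CPM range; Hongyang whole fruit replicates 2 and 3 have the lowest filled points, at 56.6% and 40.0%.

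Whether genes steady in some groups stay steady in others was read by choosing in 6 libraries and testing in the remaining 6, each set filtered and scaled by itself. Genes steady over the 6 Hongyang libraries numbered 1477, and 868 of those read (58.9%) also met the limit over the 6 Jinyan libraries, against 40.7% of all genes in the CPM range. Of 1474 tested, 445 (30.2%) differed between core and whole fruit in Jinyan by edgeR (adjusted p under 0.05), 285 higher and 160 lower in core, against 44.3% of genes in the range and 35.1% of all genes. Their median absolute log2 difference was 0.28, against 0.39 for the range and 0.49 for all genes. The share called was thus below that of the range and of all genes. At least 2-fold differences were found for 31 of the chosen genes (2.103%), against 12.6% of the range. The count was 265, 271 and 277 when Jinyan whole fruit replicates 1, 2 and 3 were left out in turn. With library totals the genes were chosen anew, and of 1586 tested, 85 were higher and 320 lower in core. The share of all genes called in these alternative fits is not given here.

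Genes steady over the 6 whole fruit libraries of both cultivars numbered 1084, and 556 (51.3%) met the limit over the 6 core libraries, against 29.9% of the range. In core, 379 of them (35.0%) differed between the cultivars, 102 higher and 277 lower in Hongyang, against 52.1% of the range and 43.7% of all genes. Their median absolute log2 difference was 0.33, against 0.51 and 0.63. Without Hongyang core replicate 3 the count was 225. A new choice on library totals gave 1243 genes tested, of which 196 were higher and 147 lower in Hongyang. For both of these fits the share of all genes called is not given here. Large differences were few: 53 of the chosen genes (4.89%) differed at least 2-fold, against 22.5% of the range.

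The other readings met the scattered Hongyang whole fruit group. Of 1753 genes steady over the 6 core libraries, 470 (26.8%) met the limit in whole fruit, against 15.8% of the range, and 91 (5.19%) differed between the cultivars, 48 higher and 43 lower in Hongyang, against 18.5% of the range and 14.7% of all genes. That count was 2, 3 and 2 when Jinyan whole fruit replicates 1, 2 and 3 were left out in turn, and 11, 184 and 334 for those of Hongyang whole fruit. Chosen anew on library totals, 37 of 1822 genes tested were higher and 82 lower in Hongyang. Of 2525 genes steady over the 6 Jinyan libraries, 786 of those read (31.2%) met the limit in Hongyang, against 21.9% of the range. Only 1 of 2521 tested (0.0397%) differed between core and whole fruit in Hongyang by edgeR, against 0.154% of the range and 0.366% of all genes. The number was 0 if any core library or whole fruit replicate 1 was left out, 12 lacking whole fruit replicate 2, 9 lacking replicate 3 and 74 by DESeq2. For the fits of this paragraph that left out a library, used library totals or used DESeq2, the share of all genes called is not given here. Whether all genes changed alike in them therefore cannot be told. The differences in share between chosen genes and the range were not tested.

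**Figure D5:**
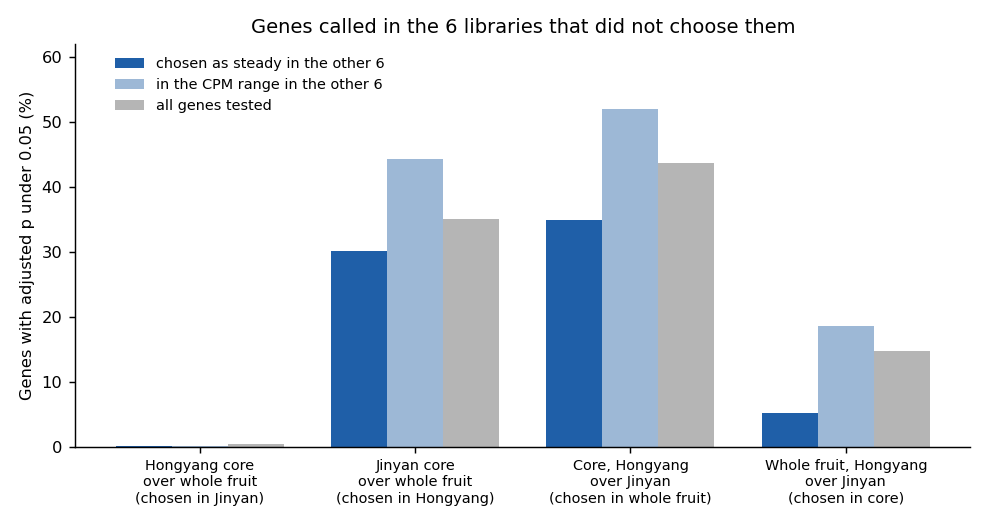
Bars give the percentage of genes with an adjusted p under 0.05 in 6 libraries, for genes chosen as steady in the other 6, for genes in the CPM range there and for all genes tested. In Jinyan tissues and in core, 30.2% and 35.0% of the chosen genes were called, against 44.3% and 52.1% of genes in the range, while in the Hongyang tissues all 3 bars lie near 0.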

How the data were processed

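RNA from ripe kiwifruit was selected for poly(A), primed with random hexamers and sequenced as read pairs, per the labels' protocols; no strand-marking step is named, so overlapping genes cannot be told apart. The submitters' processing notes name Trimmomatic 0.36 and HISAT2 2.1.0, a read trimmer and a spliced aligner. The authors deposited raw counts per gene, 1 column per library. Counting program, build, annotation and the handling of reads from near-identical gene copies are points not given in the sources used here.

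The analysis ran in R 4.3.3 with edgeR 4.0.16: filterByExpr on the 4 groups, TMM factors, CPM, and 1 quasi-likelihood model of 4 group means with Benjamini-Hochberg adjustment over all genes tested. Fold changes are Hongyang over Jinyan and core over whole fruit. SE is the absolute log2 fold change over the square root of F. Alternatives used limma 3.58.1 and DESeq2 1.42.0. Since no label ties replicates to separate fruits, p-values reflect only how these libraries scatter, which may be technical. Replicates differed by more than sampling noise in every pair (chi-square over its degrees of freedom, 5.76 to 126).

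Members and lists were chosen with earlier results of these data known. Genes named are the 2 steadiest in each of 4 CPM bands, the 2 on either side of the ratio limit and, per comparison, the called steady gene with the largest difference in each direction. Lists of gene products drawn up for reference genes and tissue markers could not be matched to identifiers. The rule and the fit were checked on simulated data with the same spread for every gene and group. That check does not cover the uneven scatter of these libraries.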

Additional observations from a re-analysis of the deposited data

Results flagged for a closer look

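Achn336601 stood out because its core and whole fruit libraries did not overlap in either cultivar and lay in opposite order. The log2 fold change of core over whole fruit was 0.37 in Hongyang and -0.31 in Jinyan, a difference of 0.68 that did not pass the edgeR interaction test (adjusted p = 0.17). Achn095891 stood out in the same way: its fold changes of core over whole fruit were 0.25 in Hongyang and -0.21 in Jinyan, and their difference of 0.46 did not pass either (adjusted p = 0.32 by edgeR). Both genes were chosen on these same values, so the p-values are a description. Tissues apart in both cultivars and in opposite order were seen for 9 steady genes (3.56%), against 2.51% of all genes.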

How the results depend on the processing

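The number of steady genes was 112 at a ratio limit of 1.5 and 1156 at 2, 112 at a mean of at least 50 CPM, and 151 after thinning, with 157, 147, 140 and 130 in 4 further draws, which were chosen after seeing the data, as was the use of library totals for genes chosen in 6 libraries. It ran from 257 to 530 without 1 library. Steady genes called between the cultivars in core numbered 30 with library totals, 27 by DESeq2, 35 by limma voom, 19 when only the core libraries were fitted and 1 without a filter on low counts (1 to 23 without 1 library). In whole fruit they numbered 13 by DESeq2, 25 by limma voom and 0 without a filter or when only whole fruit was fitted (0 to 10 without 1 library). Between core and whole fruit they numbered 3 with library totals, 3 by DESeq2 and 12 by limma voom in Hongyang, and 52, 18 and 26 in Jinyan, where 20 passed when only Jinyan was fitted and 0 without a filter (0 to 13 without 1 library). The interaction called 6 by DESeq2 and 9 by limma voom (0 to 2 without 1 library). The ratio limit also changes how many genes are chosen, so the number tested is given beside each count. Genes chosen in Hongyang and called in Jinyan numbered 992 of 3025 at a limit of 2, where the main limit gave 445 of 1474 (265 to 437 without 1 library). Those chosen in whole fruit and called in core numbered 986 of 2469, where the main limit gave 379 of 1084 (225 to 324). For genes chosen in core and called in whole fruit the main limit gave 91 of 1753. The numbers were 57 of 1271 at a limit of 1.5, 236 of 3177 at 2 and 228 of 1753 by DESeq2 (2 to 334 without 1 library). For genes chosen in Jinyan and called in Hongyang they were 4 of 4149 at a limit of 2 and 74 of 2521 by DESeq2 (0 to 12 without 1 library). Chosen anew on library totals, 2 of 2526 were called. The level of the steady genes relative to TMM spanned 1.08 times over the libraries by geometric mean and 1.11 times by median. The causes of these changes were not tested, apart from the smaller number of libraries or genes that some alternatives fit by construction. For counts by DESeq2, by limma voom, without a filter or in fits of fewer libraries, the share of all genes is not given here.

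Deviations of samples with the same replicate number correlated weakly: 1 of 18 such pairs lay over 0.1, with a range from -0.06 to 0.17. That pair was Hongyang whole fruit and Jinyan core replicate 2. Among pairs with different numbers, 0 of 36 lay over 0.1, with a range from -0.10 to 0.09. The difference between these 2 kinds of pairs was not tested. With a replicate block, 4 steady genes were called between the cultivars in core, 1 in whole fruit and 0 between the Jinyan tissues, and 29 of the genes chosen in core were called in whole fruit; no other count moved by over 1.5 times. The shallow library had a counting error of 14.1% at 20 CPM, and the part of this error in the ratios was not tested.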

Other observations

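Thinning gave different lists from draw to draw. Of 5 random draws to the smallest library total, each found from 130 to 157 steady genes, and 25 genes were steady in every draw, 18 of them among the 253. No draw held 78 of the 253. The TMM factor of the shallow Hongyang whole fruit replicate 3, whose own counts are not changed by thinning, lay between 1.186 and 1.197 in these draws and 1.34 at full depth.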
